A study of Arabidopsis thaliana with 7 samples.

Results

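The genes described here are cytochrome P450s of the CYP71 clan that serve specialized metabolism. They were chosen by symbol: every gene in RefSeq's table of the Arabidopsis thaliana genome whose symbol is CYP71, CYP76, CYP81, CYP82, CYP705 or CYP706 followed by a letter and digits. CYP71A12, CYP71A13, PAD3 (CYP71B15) and CYP81F2, which serve camalexin and pathogen-induced indole metabolism, were left out. The rule gave 114 genes, 8 of them listed as pseudogenes, and used no measured value. Of these, 104 had a probe on the array and 81 were bright enough to be tested, out of 25347 genes with a probe and 20509 genes tested in all. RNA was measured on 7 single-colour arrays, 4 from seedlings carrying 35S:MYB106VP16 and 3 from wild type, all of accession Columbia-0, 3 weeks old and taken whole. In the transgene the MIXTA-like factor MYB106, a regulator of epidermal cells, carries the activation domain of VP16, and the 35S promoter expresses it in most tissues rather than in the gene's own pattern. The labels do not say how many transgenic lines were used. Each sample pooled several seedlings from a plate, and the labels do not tell of separately grown replicates. The p-values thus cover only the scatter of these samples, part of which may be technical.

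Cytochrome P450s are haem enzymes that insert oxygen into small molecules, with electrons passed on by a P450 reductase or a cytochrome b5. The plant CYP71 clan has expanded by tandem duplication, and its families oxidise terpenes, triterpenes, coumarins, indole compounds and foreign chemicals. In Arabidopsis, several members work beside the terpene or triterpene synthase that makes their substrate.

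Signals are given as scaled signal, in which the 75th percentile of each array is 100, for the replicates of a group in order. Log2 changes are 35S:MYB106VP16 minus wild type with their SE, and a gene is called where limma's p, adjusted by Benjamini-Hochberg over all 20509 genes, is under 0.05. Between 73.5% and 76.3% of probes were well above background on each array. The transgene was seen on all its arrays: MYB106 read 848, 980, 1110 and 591 in 35S:MYB106VP16 and 17.3, 13.8 and 18.8 in wild type. The 35S:MYB106VP16 arrays shared a slide and the wild-type arrays shared a different one, so slide and genotype cannot be told apart in any value below. Whole seedlings were used, so fewer cells of a type and less RNA per cell cannot be told apart either. The leaf photosynthesis genes were measured on every array. Of 21, 0 were called higher (against 28.1% of all genes) and 1 lower (4.76%, against 24.8%), namely LHCA2 (log2 -0.32). Their summed scaled signal was 134000 to 164000 in 35S:MYB106VP16 and 148000 to 162000 in wild type.

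The members moved in both directions in equal number. Of the 81 tested, 24 (29.6%) were called higher in 35S:MYB106VP16 and 24 (29.6%) lower, and 33 did not pass. Over all genes tested 28.1% were called higher and 24.8% lower, so the share of members called was near the background. Without wild-type replicate 3 the members called were 14 higher and 20 lower. Calls fell over all genes too, from 5768 to 4226 higher and from 5083 to 3877 lower. In that fit 41.2% of the member calls were higher, against 52.2% for all genes. Over the 7 fits that each left out 1 array, 33 of the 48 called members kept their call and 15 lost it at least once. Changes of at least 2-fold were called for 6 members that rose (7.41%, against 5.77% of all genes) and 10 that fell (12.3%, against 4.72%). The falls depend on the processing: normexp background gave 3 (3.7%, against 2.72% of all genes), 6 came from the authors' deposited series table (7.41%, against 2.96%), spike-in scaling gave 23 (28.4%, against 20.3%) and the test against 1.5-fold gave 5 (6.17%, against 3.15%). The 88 other tested genes with a CYP symbol had 11 such rises (12.5%) and 13 such falls (14.8%), both shares above those of the members. The median log2 change was -0.018 for members and 0.024 for all genes, and the median absolute change was 0.476 for members, 0.343 for all genes and 0.553 for the other P450s. The groups did not overlap for 46 members (56.8%), against 57.6% of all genes.

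**Figure D1:**
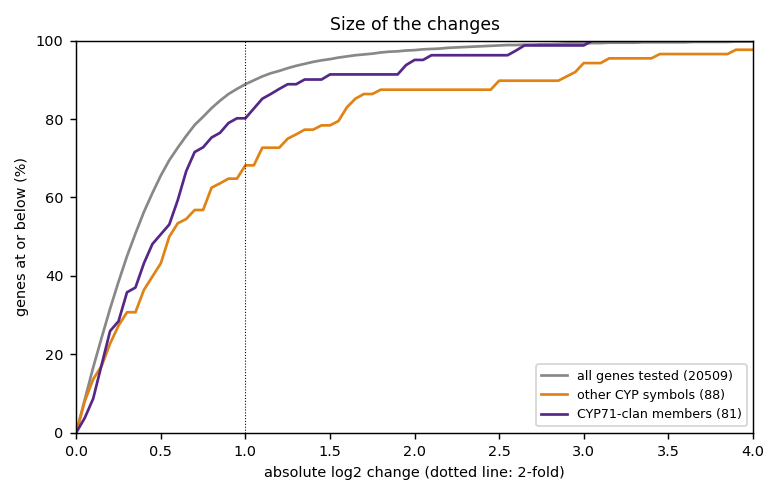
Share of genes (%, vertical axis) whose absolute log2 change between 35S:MYB106VP16 and wild type was at or below the value on the horizontal axis, for all 20509 genes tested (grey), the 88 other genes with a CYP symbol (orange) and the 81 members (purple). At the dotted line, a 2-fold change, the curves stand at 88.9%, 68.2% and 80.2%.

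The balance between rises and falls depends on how the arrays are scaled. Of the called members 50% were higher with the 75th percentile, 54.5% when arrays were scaled to their median, 65.0% in the authors' deposited series table, and 9.26% when scaled to the spike-in probes. For all genes the same shares were 53.2%, 66.6%, 76.2% and 8.04%, with medians over all genes of 0.02, 0.14, 0.23 and -0.57 on the log2 scale. Spike-in scaling therefore lowers every gene by more than 0.5 on the log2 scale, and under it 7 members called higher turn negative, namely CYP705A15, CYP706A4, CYP71B20, CYP71B21, CYP71B4, CYP71B6 and CYP81D4.

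Family counts are read against the 28.1% called higher and 24.8% called lower of all genes. Among the CYP71A genes 3 rose and 6 fell of 10 tested, with a median log2 change of -0.70. In CYP71B, the largest family with 26 tested genes, 8 rose (30.8%) and 6 fell (23.1%), near those shares. By their representing probes all 3 tested CYP76 genes were called lower, although a further probe of CYP76C2 was called higher. In CYP706 1 rose and 3 fell of 7. In CYP81 6 rose and 2 fell of 12, with a median of 0.42. In CYP82 1 rose and 1 fell of 3. In CYP705 5 rose and 3 fell of 20, none of them by 2-fold on its representing probe. Dimmer probes went further for CYP705A1 (log2 1.119) and CYP705A18 (log2 -1.475), both called. A dimmer probe was called lower for CYP705A5 (log2 -0.804), CYP705A21 (log2 -0.677), CYP705A22 (log2 -3.009) and CYP706A1 (log2 -0.937). The other probes of these genes, the representing ones among them, were not called. CYP705A15, among the rises, had a dimmer probe called lower. The difference between families was not tested.

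**Figure D2:**
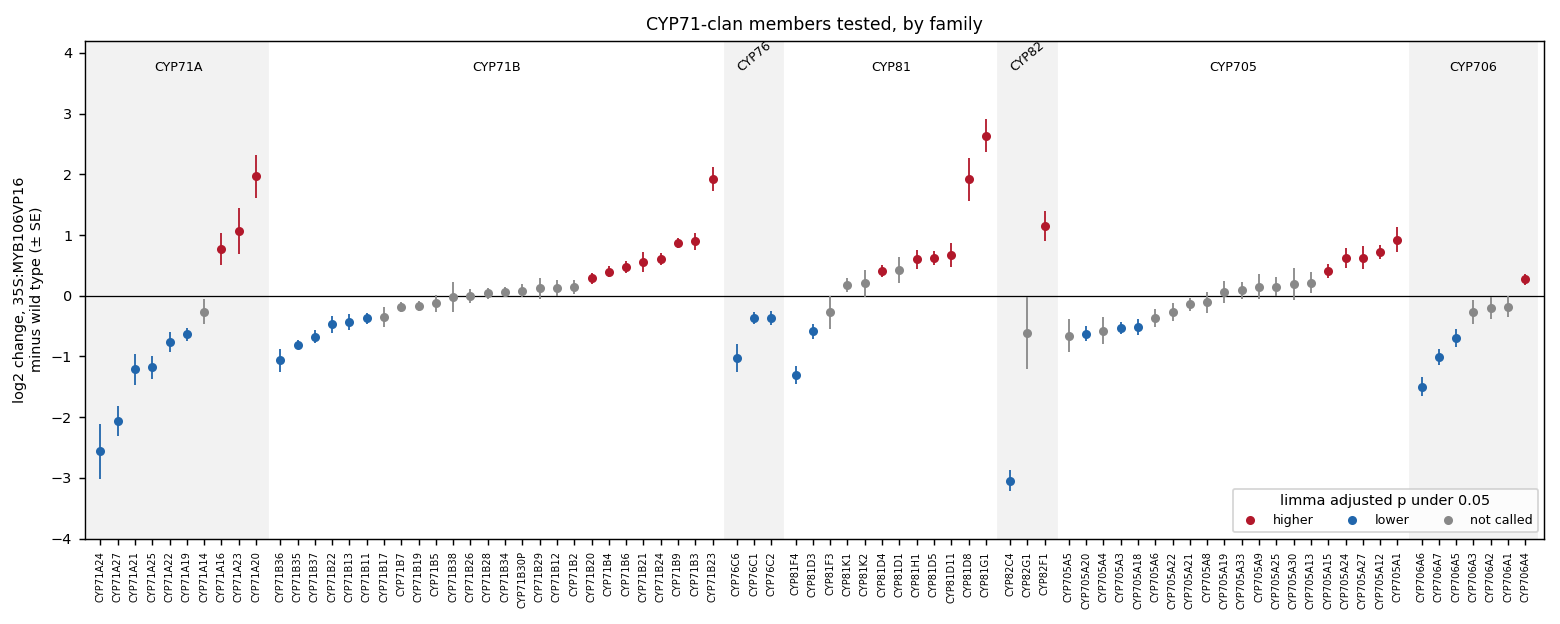
Log2 change (35S:MYB106VP16 minus wild type, with SE bars) of each of the 81 tested members, ordered within families. Red points were called higher, blue points lower and grey points were not called by limma at an adjusted p under 0.05, and CYP81G1 has the highest value, 2.64. The fitted -3.05 of CYP82C4 rests on transgenic signals not well above background.

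In coumarin metabolism, CYP82C4 fell to the background. The enzyme hydroxylates fraxetin to sideretin, a coumarin that roots secrete to mobilise iron when iron is short. Its signal was 2.06, 2.25 and 3.44 in wild type and 0.3, 0.3, 0.288 and 0.331 in 35S:MYB106VP16, where no array was well above background. It was thus at least 4.93-fold lower (limma adjusted p = 7.36e-05), a bound set by the dimmest probes that still stood well above background on the transgenic arrays.

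Other genes of coumarin synthesis and iron deficiency went in both directions. Of 14 tested in that list, 3 rose and 3 fell (21.4% each, against 28.1% and 24.8% of all genes). F6'H1 (AT3G13610), which makes the coumarin scaffold, fell from 41.7, 53.3 and 43.8 to 29.4, 25.5, 32.7 and 40.9 (log2 -0.54 ± 0.17 SE, adjusted p = 0.03), a call lost without any 1 of 5 arrays, transgenic replicate 4 and wild-type replicate 1 being the exceptions (adjusted p = 0.0521 to 0.104). The iron uptake genes IRT1, an iron transporter, and FRO2, a ferric reductase, fell 1.47-fold and 1.88-fold. FRO2 did not pass without wild-type replicate 2 or 3 (adjusted p = 0.0712 and 0.072), and IRT1 without any 1 of 5 arrays, passing only without transgenic replicate 2 or wild-type replicate 1 (adjusted p otherwise 0.0602 to 0.143). BHLH100 and bHLH38, transcription factors induced by iron deficiency, rose 3.86-fold and 2.01-fold. IRT1 read 12.3, 14, 8.56 and 11.0 against 13.6, 20 and 16.8, so its groups overlapped, and BHLH100 read 7.53, 13.3, 16.7 and 14.9 against 2.83, 4.07 and 3.0.

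The tandem copies next to CYP82C4 were not tested, since they were above background on too few arrays. CYP82C2, which hydroxylates an indole carbonylnitrile of pathogen defence, read 0.365, 0.436, 0.149 and 20.9 in 35S:MYB106VP16 and 0.152, 0.187 and 0.145 in wild type. CYP82C3 read 0.194, 0.654, 0.128 and 7.29 against 0.24, 0.101 and 0.119. Replicate 4 alone carried a high signal in both.

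CYP82F1, a member with no role given here, rose from 5.36, 4.24 and 3.47 to 6.33, 9.29, 11.0 and 12.4, which was 2.21-fold (log2 1.15 ± 0.25 SE, adjusted p = 0.00695).

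In indole glucosinolate modification, CYP81F4 fell. It hydroxylates the indole ring nitrogen of indole glucosinolates, the step before methylation there. CYP81F4 read 968, 833 and 785 in wild type and 313, 284, 400 and 411 in 35S:MYB106VP16, so the groups were far apart. The fall was 2.47-fold (log2 -1.30 ± 0.15 SE, adjusted p = 0.000596), and the other probes for the gene fell by 1.62 and 1.49 on the log2 scale. IGMT5, the methyltransferase that acts on the product of CYP81F4, read 621, 481 and 450 in wild type and 145, 144, 170 and 245 in 35S:MYB106VP16, a 2.98-fold fall (adjusted p = 0.000898).

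The core of the pathway had falls and no called rises. In the list of indole glucosinolate core enzymes and methyltransferases 8 of 16 fell (50%, against 24.8% of all genes) and 0 rose (against 28.1%). The median log2 change was -0.54. The call of IGMT3, among the falls, was lost without transgenic replicate 1 or 2 or wild-type replicate 1 or 2 (adjusted p = 0.0575 to 0.0988). CYP79B3, which makes indole-3-acetaldoxime from tryptophan, fell 3.19-fold, GGP1, which processes the glutathione conjugate, fell 2.29-fold, and CYP83B1, which oxidises the aldoxime, fell 1.76-fold. CYP79B2 read 154, 107, 217 and 358 against 460, 297 and 297 and did not pass (adjusted p = 0.101), but was lower without replicate 4 (log2 -1.17, adjusted p = 0.0177).

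CYP81F3, which hydroxylates a carbon of the same indole ring, did not pass over all arrays. It read 15.2, 17.7, 12.9 and 31.0 in 35S:MYB106VP16 and 22.3, 20.6 and 22.7 in wild type, so replicate 4 lay above every wild-type array and the other replicates below. The log2 change was -0.27 ± 0.28 SE (adjusted p = 0.434) with replicate 4 and -0.53 ± 0.13 SE (adjusted p = 0.0139) without it. CYP81F1, a further relative, is listed by RefSeq as CYP91A2 and is no member under the rule, and it was not called (log2 0.16, adjusted p = 0.628). CYP81F2, left out by the rule, read 54.4, 30.0, 62.6 and 68.9 against 26.4, 45.0 and 40.1 (adjusted p = 0.207) and passed only without transgenic replicate 2 (log2 0.77, adjusted p = 0.0248).

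CYP71B6, which turns indole-3-acetonitrile into indole-3-carbaldehyde, read 457, 415, 484 and 539 in 35S:MYB106VP16 and 317, 359 and 342 in wild type. The rise was 1.39-fold (adjusted p = 0.00665). CYP71A13, a nitrile-forming camalexin enzyme that the rule left out, read 5.39, 2.93, 8.51 and 8.87 against a wild-type signal not well above background, at least 11.5-fold higher (adjusted p = 0.000138). Its relative CYP71A12 and PAD3, the last camalexin enzyme, were not called (adjusted p = 0.134 and 0.771).

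The largest rises were in CYP81, CYP71A and CYP71B genes, and 1 of them is a known stress marker. CYP81D8, induced by foreign chemicals and oxidative stress, read 121, 83.6, 60.1 and 159 in 35S:MYB106VP16 and 20.7, 37.8 and 23.1 in wild type. It rose 3.78-fold (log2 1.92 ± 0.36 SE, adjusted p = 0.00361). CYP81D11, a further marker of the response to foreign chemicals and volatiles, read 40.8, 60.7, 57.9 and 49.3 against 30.8, 42.7 and 25.9. Its rise was 1.59-fold (adjusted p = 0.0257), although the highest wild-type array exceeded the lowest transgenic one, and it did not pass without transgenic replicate 2 or 3 or wild-type replicate 1 or 3 (adjusted p = 0.0587 to 0.0919).

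The detoxification list moved the same way more often than not. Of 24 tested genes 14 rose (58.3%, against 28.1% of all genes) and 4 fell (16.7%, against 24.8%), with a median log2 change of 0.49. The rises of ABCB4, CYP72A8, GSTU1, GSTU7 and UGT73B5 lost their call without at least 1 array (adjusted p up to 0.142). So did the falls of GSTU19 and NAC102 (adjusted p up to 0.141). DTX1, a detoxification efflux carrier, rose 5.98-fold, UGT74E2, a glucosyltransferase of indole-3-butyric acid, 5.32-fold, and the glutathione transferases GSTU4 and GSTF6 3.79-fold and 3.63-fold. Against that direction, the glutathione transferase GSTU5 read 171, 186, 157 and 176 in 35S:MYB106VP16 and 382, 386 and 371 in wild type, lower by 1.14 ± 0.08 SE on the log2 scale (adjusted p = 0.000118). OPR1, an oxophytodienoate reductase relative, fell 1.33-fold and lost its call without any 1 of 5 arrays (adjusted p = 0.0661 to 0.119).

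The other large rises lack a role that can be given with certainty. CYP81G1 read 18.4, 21.8, 30.4 and 36.9 in 35S:MYB106VP16 and 3.38, 5.54 and 3.86 in wild type, 6.21-fold higher (log2 2.64 ± 0.27 SE, adjusted p = 0.000383), the largest rise of any member. CYP71B23 read 154, 109, 167 and 186 against 34.7, 48.6 and 37.9, 3.78-fold higher (adjusted p = 0.000384). In neither gene did the groups come near each other. CYP71B3 read 231, 200, 211 and 253 against 98.8, 143 and 121, 1.86-fold higher (adjusted p = 0.00187). CYP71B9 read 3.26, 2.93, 3.21 and 2.93 against 1.55, 1.84 and 1.68, 1.83-fold higher with the smallest spread among the large rises (adjusted p = 0.00035). CYP71A23 passed narrowly at 1.32, 1.03, 2.34 and 2.79 against 1.16, 0.712 and 0.67 (adjusted p = 0.0457), its groups overlapped, and it did not pass without transgenic replicate 3 or 4 or wild-type replicate 2 or 3 (adjusted p = 0.0872 to 0.139).

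**Figure D3:**
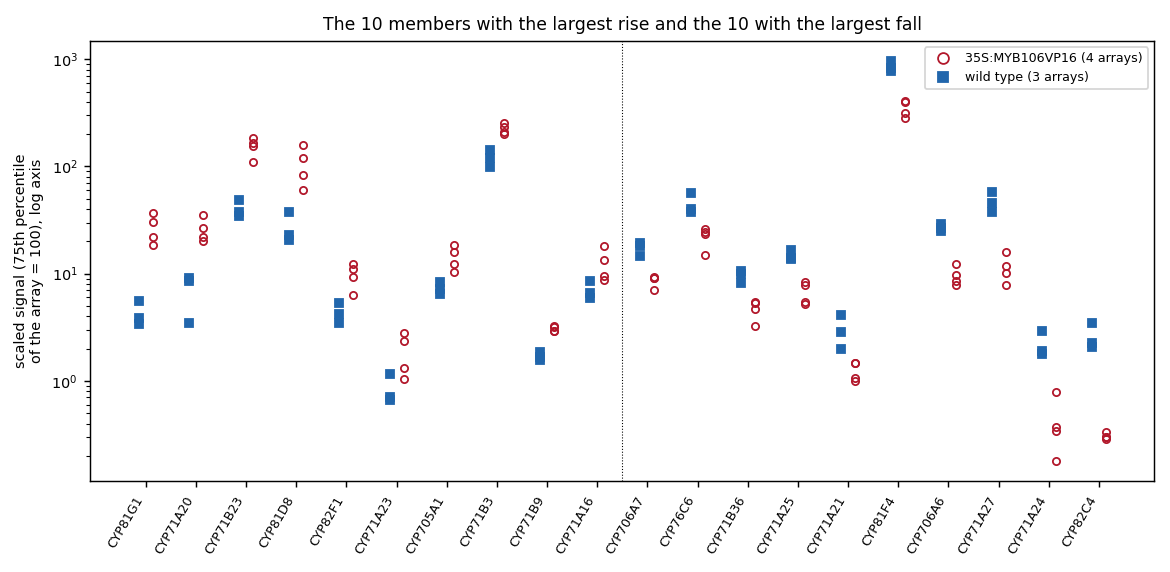
Scaled signal on a log axis (75th percentile of each array = 100) of the 10 members with the largest called rise (left of the dotted line) and the 10 with the largest called fall (right), as red circles for the 4 arrays of 35S:MYB106VP16 and blue squares for the 3 wild-type arrays. The groups are separate for each gene except CYP71A23, and CYP82C4 is not well above background on any transgenic array.

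In triterpene metabolism, both members beside the marneral synthase rose. In the stretch that holds the arabidiol synthase and BARS1, members went in both directions. CYP71A16 and CYP705A12 lie side by side with MRN1, the marneral synthase, and CYP71A16 oxidises its products. CYP705A12 read 94.0, 85.0, 115 and 98.9 in 35S:MYB106VP16 and 65.8, 56.9 and 56.4 in wild type, 1.64-fold higher (adjusted p = 0.00221). CYP71A16 read 8.77, 9.61, 13.3 and 18.2 against 8.56, 5.97 and 6.65, 1.71-fold higher (adjusted p = 0.0399), with the lowest transgenic array just above the highest wild-type one. CYP71A16 did not pass without transgenic replicate 3 or 4 (adjusted p = 0.0843 and 0.0515) or wild-type replicate 2 or 3 (0.123 and 0.108). MRN1 read 1.54, 1.48, 2.39 and 4.9 against 1.24, 0.131 and 0.514 and was called higher (adjusted p = 0.0323), but it was well above background on only 1 of 3 wild-type arrays. Its call, too, was lost without either of 2 transgenic or either of 2 wild-type arrays (adjusted p = 0.0641 to 0.0718).

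CYP705A1 cleaves arabidiol to the volatile homoterpene DMNT in roots. It read 12.2, 10.3, 18.5 and 16.0 in 35S:MYB106VP16 and 6.46, 8.43 and 7.19 in wild type, 1.90-fold higher (log2 0.92 ± 0.21 SE, adjusted p = 0.00814). Its neighbour PEN1, the arabidiol synthase, read 19.6, 19.4, 24.5 and 24.9 against 15.5, 21.4 and 18.5 and was not called (adjusted p = 0.165). CYP705A3, further along the same stretch, fell 1.44-fold (adjusted p = 0.00406). CYP705A3 and CYP705A4 lie on either side of BARS1, from the list of triterpene synthases and cluster partners, and not next to PEN1. BARS1 was too dim to be tested, at 0.186, 0.199, 0.178 and 0.143 against 0.415, 0.85 and 0.73. CYP705A4 read 18.3, 19.1, 23.7 and 33.3 against 31.9, 40.2 and 31.0 and did not pass (log2 -0.58 ± 0.22 SE, adjusted p = 0.0576), but was lower without replicate 4 (adjusted p = 0.00677).

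In the thalianol cluster CYP705A5, CYP708A2 and THAS1 were not called by their brightest probes. CYP705A5, the thalianol-diol desaturase, read 8.55, 8.56, 16.2 and 16.5 in 35S:MYB106VP16 and 18.7, 17.8 and 19.6 in wild type (log2 -0.66 ± 0.27 SE, adjusted p = 0.0745). The transgenic arrays fell into a lower and a higher pair, all below wild type, and without transgenic replicate 3 or 4 the fall passed (log2 -0.81 and -0.82, adjusted p = 0.0405 and 0.0363). A dimmer probe of CYP705A5 was called lower (log2 -0.80, adjusted p = 0.00486) and a further one was not (log2 -0.20, adjusted p = 0.599). THAS1, the thalianol synthase, and CYP708A2, the thalianol hydroxylase, were not called (adjusted p = 0.99 and 0.444). CYP705A22, known from root gravitropism, read 18.6, 23.0, 21.9 and 27.4 against 25.4, 32.1 and 24.5 and was not called (adjusted p = 0.171). A further probe of CYP705A22, well above background on 3 of 7 arrays, was called lower (adjusted p = 0.00247), another was not (adjusted p = 0.911), and the mean over its probes was called lower (log2 -1.10, adjusted p = 0.00152).

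Over the whole list of triterpene synthases and cluster partners 3 of 12 tested genes rose and 3 fell. These are 25.0% each, against 28.1% and 24.8% of all genes. CYP702A2, a P450 of another family, fell 2.89-fold. These clusters are known from roots. Of the 22 root markers 7 rose (31.8%, against 28.1% of all genes) and 2 fell (9.09%, against 24.8%). All 7 are root-hair genes, for example PRP3 at 4.16-fold and EXPA7 at 2.03-fold. The call of PERK13, a kinase gene among the 7, was lost without any 1 of 5 arrays (adjusted p = 0.0782 to 0.146), and that of SHV2 without wild-type replicate 3 (adjusted p = 0.064). The summed scaled signal of the root markers was 780 to 1130 in 35S:MYB106VP16 and 798 to 983 in wild type, and the part of root content in the triterpene values was not tested.

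Among the monoterpenol oxidases and their relatives, CYP76C1 and CYP76C6 fell. CYP76C1, which oxidises the flower monoterpene alcohol linalool, read 116, 94.3, 104 and 118 in 35S:MYB106VP16 and 142, 134 and 141 in wild type, 1.29-fold lower (adjusted p = 0.0136, and 0.0519 without wild-type replicate 3). Its dimmer probe fell by 1.00 on the log2 scale. CYP76C6 read 23.3, 25.9, 14.8 and 24.6 against 39.8, 38.0 and 56.9, 2.04-fold lower (adjusted p = 0.00764), and its dimmer probe fell as far.

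For CYP76C2, a monoterpenol oxidase, the probes disagree. The brighter probe read 132, 118, 107 and 149 against 161, 159 and 164, 1.29-fold lower (adjusted p = 0.0337, and 0.0505 to 0.099 without any 1 array other than transgenic replicate 4). The dimmer probe read 8.59, 8.04, 9.65 and 27.1 against 1.45, 5.41 and 1.51 and was called higher (log2 2.35 ± 0.59 SE, adjusted p = 0.0118), so no direction is given for this gene. CYP705A15 was the other of 18 members with several tested probes whose probes were called in opposite directions (log2 0.41 and -0.35), and its brighter probe did not pass without any 1 wild-type array (adjusted p = 0.0564 to 0.0751).

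CYP706A3, which oxidises flower sesquiterpenes, read 25.8, 22.1, 20.4 and 25.2 against 37.9, 20.9 and 27.9 and was not called (adjusted p = 0.28). CYP71B31, also of flower terpene oxidation, was above background only on wild-type replicate 1, at 2.3. Of 10 flower markers 1 rose, the petal and stamen identity gene PI (2.26-fold, adjusted p = 0.0102), and 0 fell. The median log2 change of the flower markers was -0.36. Their summed scaled signal was 146 to 239 in 35S:MYB106VP16 and 101 to 217 in wild type. PI made up a large part of these sums, at 134, 129, 84.1 and 134 against 76.7, 35.3 and 52.4. The sums thus do not give the direction of the other flower markers.

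CYP82G1 makes the homoterpene TMTT from geranyllinalool, the product of TPS04. CYP82G1 read 0.668, 0.288, 0.789 and 2.17 in 35S:MYB106VP16 and 1.32, 0.943 and 1.24 in wild type. TPS04 read 0.859, 1.01, 0.589 and 7.21 against 7.95, 5.61 and 4.59. In both genes replicates 1 to 3 lay below every wild-type array and replicate 4 did not. Neither passed over all arrays (adjusted p = 0.417 and 0.0617). Without replicate 4 the log2 change was -1.12 ± 0.38 SE for CYP82G1 (adjusted p = 0.0497) and -2.88 ± 0.27 SE for TPS04 (adjusted p = 0.000761). Only 2 of 4 transgenic arrays measured CYP82G1 well above background.

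Transgenic replicate 4 was often the highest array of its group. It was the highest of the 4 transgenic arrays for 39 of 81 tested members (48.1%), against 35.0% of all genes. In wild type, replicate 2 was the highest of 3 arrays for 48 of the 81. The median scaled signal of these members was 31.9 there, against 25.4 and 26.4 on wild-type replicates 1 and 3. The share over all genes was not computed for wild type. CYP82C2, CYP82C3 and CYP76C4, a further linalool oxidase, were above background mainly on transgenic replicate 4. CYP76C4 read 0.152, 0.105, 0.103 and 2.49 against 0.104, 0.11 and 0.122. CYP71A12, outside the rule, read 4.48, 2.41, 4.32 and 30.7 against 1.4, 2.21 and 2.76. Without transgenic replicate 4, 21 of the 81 members were called higher and 28 lower, against 5498 higher and 5122 lower of all 20509 genes. Of the calls in that fit, 42.9% were higher for members and 51.8% for all genes.

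**Figure D4:**
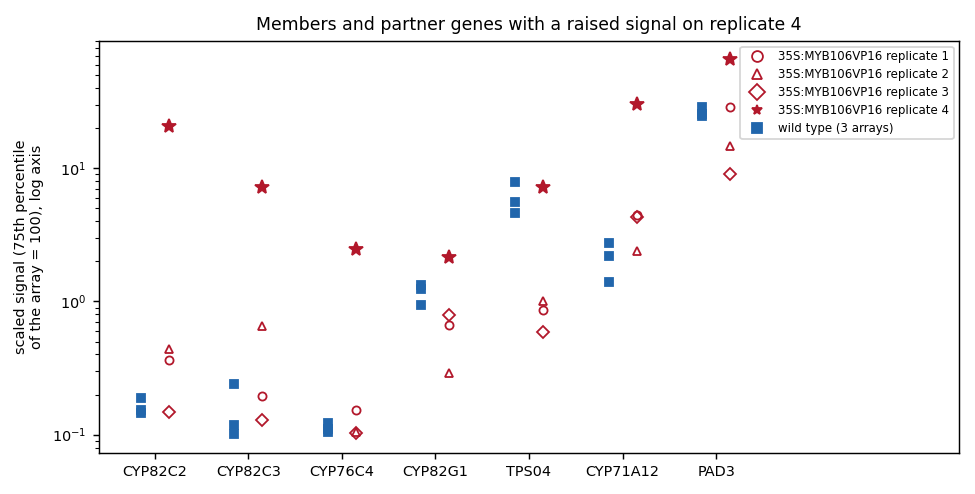
Scaled signal on a log axis (75th percentile of each array = 100) of 4 members and of TPS04, CYP71A12 and PAD3, chosen after their values were seen, as red symbols for the transgenic arrays (filled star for replicate 4) and blue squares for the 3 wild-type arrays. Replicate 4 is the highest transgenic array for every gene shown, from 2.17 in CYP82G1 to 65.8 in PAD3.

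CYP71A19 and CYP71A20 lie on either side of TPS13, next to TPS12, both sesquiterpene synthases, and moved in opposite directions. CYP71A20 read 20.3, 21.8, 26.5 and 34.9 in 35S:MYB106VP16 and 3.48, 9.09 and 8.59 in wild type, 3.90-fold higher (log2 1.96 ± 0.36 SE, adjusted p = 0.00335). CYP71A19 fell 1.55-fold (adjusted p = 0.00272). TPS12 read 12, 17.7, 12.2 and 14.3 against 26.6, 30.1 and 22.1 and fell 1.88-fold (adjusted p = 0.00347), and TPS13 was not called (adjusted p = 0.182). Of 24 listed terpene synthases only 8 were matched to a probe, the other names finding no match in the gene table, and 7 were tested. Of these 7, 1 rose (14.3%, against 28.1% of all genes) and 3 fell (42.9%, against 24.8%). The fall of TPS02 was lost without any 1 wild-type array (adjusted p = 0.0523 to 0.0796). The rise, of TPS08 (AT4G20210), was lost without any 1 array other than transgenic replicate 1 (adjusted p = 0.0532 to 0.0914). TPS03, an acyclic terpene synthase, had the largest change among them: it read 6.91, 3.86 and 6.35 in wild type and did not stand well above background on any 35S:MYB106VP16 array, at least 6.74-fold lower (adjusted p = 0.0192, and 0.0598 and 0.0591 without wild-type replicate 1 or 3).

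The remaining large falls were in CYP71A, CYP71B and CYP706. CYP71A27 read 57.8, 45.2 and 37.3 in wild type and 10.2, 7.81, 11.7 and 16.0 in 35S:MYB106VP16, 4.17-fold lower (log2 -2.06 ± 0.25 SE, adjusted p = 0.000679). CYP71A24 read 2.92, 1.9 and 1.78 against 0.339, 0.37, 0.178 and 0.779 in 35S:MYB106VP16, where it was well above background on 1 of 4 arrays (log2 -2.56 ± 0.46 SE, adjusted p = 0.00304). In both genes the groups were well apart. CYP706A6 read 25.0, 29.0 and 26.4 in wild type and 9.66, 12.3, 8.6 and 7.85 in 35S:MYB106VP16, 2.82-fold lower (adjusted p = 0.000383). CYP706A7 fell 2.01-fold, from 18.1, 19.5 and 14.6 to 7.06, 9.29, 9.06 and 9.11 (adjusted p = 0.00105). CYP71A21, CYP71A25 and CYP71B36 fell 2.32-fold, 2.26-fold and 2.09-fold, each with no overlap between the groups.

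Many members lie next to each other: 80 of the 114 stand in 22 runs of 2 or more with no other listed gene between them. In 10 of these runs 2 or more members were called, and in 5 of the 10 the calls went in both directions. Next to each other, CYP706A5, CYP706A6 and CYP706A7 fell by 0.70, 1.5 and 1.01 on the log2 scale while CYP706A4 rose by 0.27. CYP71B35, CYP71B36 and CYP71B37 fell by 0.80, 1.06 and 0.67. In the run from CYP71B16 to CYP71B24, 5 of 10 members rose, up to 1.92 for CYP71B23, and CYP71B22 fell by 0.47. CYP81H1, CYP81D5, CYP81D4 and CYP81D8 rose by 0.60, 0.62, 0.41 and 1.92 around CYP81D3, which fell by 0.59. CYP71A25 and CYP71A24 fell by 1.18 and 2.56 beside CYP71A23, which rose by 1.07. The calls of CYP706A4, CYP71B20, CYP71B21, CYP71B22, CYP81D4 and CYP71A23 were lost without at least 1 array (adjusted p up to 0.112, 0.0757, 0.0607, 0.102, 0.0509 and 0.139). CYP706A4, CYP71B22 and CYP71A23 were each the only call in their direction in their run. The count of 5 runs with both directions thus rests in part on them. Probe sequences were not used, so signal shared between such close copies could not be assessed.

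**Figure D5:**
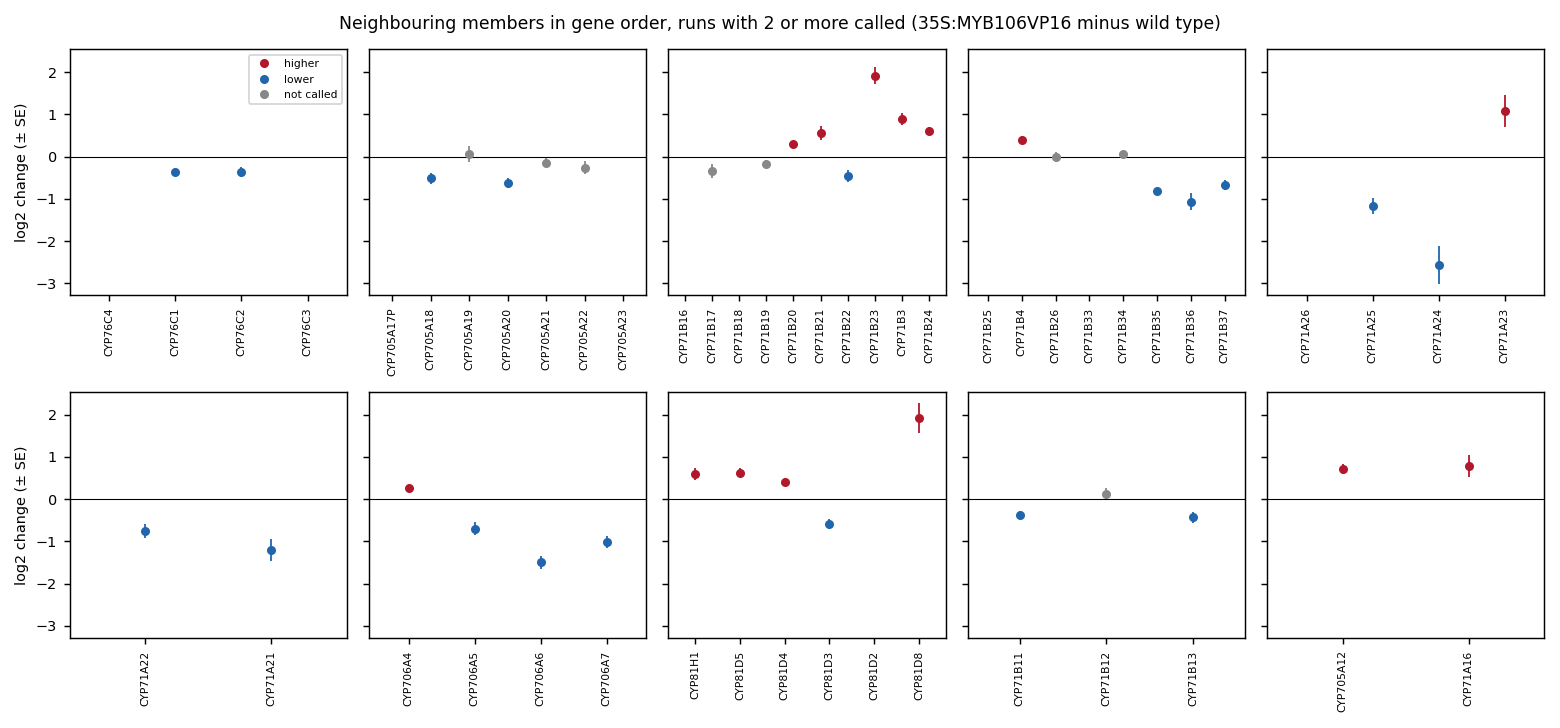
Log2 change (35S:MYB106VP16 minus wild type, with SE bars) of members in gene order, 1 panel for each of the 10 runs of neighbouring members with 2 or more called. Red was called higher, blue lower and grey not called, names with no point were not tested or had no probe, and 5 panels hold both red and blue points.

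Of 8 tested redox partners, the electron donors of these enzymes, 4 rose and 1 fell. The reductase ATR1 rose 1.27-fold (916, 865, 929 and 853 against 656, 726 and 730; adjusted p = 0.00687), and ATR2 was not called (adjusted p = 0.153). The cytochrome b5 gene CB5-B rose 1.73-fold (adjusted p = 0.00277). CB5-C read 381, 347 and 354 in wild type and 100, 59.6, 129 and 114 in 35S:MYB106VP16, 3.73-fold lower (log2 -1.90 ± 0.25 SE, adjusted p = 0.000848).

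Of the 23 members with a probe that were not tested, 19 were not well above background on any array, among them CYP71A18 and CYP76C3. The others were CYP82C2, CYP82C3, CYP76C4 and CYP71B31. The 10 members without a named probe, CYP705A14P, CYP705A16, CYP705A17P, CYP705A26P, CYP705A28, CYP71A28, CYP71B18, CYP71B27, CYP71B33 and CYP76C8P, were not analysed here.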

How the data were processed

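Spot intensity came from the authors' run of Agilent Feature Extraction 9.1.3.1, with background and spatial trend subtracted, per the file headers. The deposited flags for background, saturation and outlier spots were used as given, and no spot was saturated. Per the labels, seedlings grew on agar and total RNA was labelled with Cy3. The authors' deposited series table holds the same intensity divided by a constant, 1042.5 for transgenic and 1237.6 for wild-type arrays, on a linear scale with no centring; column medians were 0.331 to 0.438, and it served as an alternative only.

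Outlier spots were removed, spots of a probe averaged, and log2 of the processed signal taken relative to each array's 75th percentile, which was 2213 to 2858. Of 43603 probes, 34185 matched a gene of the RefSeq table (TAIR10.1) by accession without version. The probe with the highest mean stood for a gene, and a gene entered the test if 3 or more arrays had it well above background. Genes were tested with limma 3.58.1 (R 4.3.3, lmFit and eBayes). The same fit was run on simulated data of 20448 genes with 50 changed at each size. It recovered 2% of changes of 1.25-fold, 46% of 1.5-fold, 80% of 2-fold and 90% of 4-fold. The simulation held no slide difference and far fewer changed genes than were called here. Where all arrays of a group lacked signal well above background, the fold is a bound: the other group's mean over, per array, the dimmest signal still well above background or the probe's own if higher. Levels are otherwise not compared between probes. The number of arrays limits the precision.

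Members named are the 10 largest called rises and 10 largest called falls, members with a described role, members seen in 1 group only, their neighbours, the called gene of each companion list with the largest change and partner enzymes. Other genes named were chosen after their values were seen. The members and lists were chosen with earlier results of these data known. Promoter motifs were to be counted but no sequence was used here. Alternatives were other scalings, normexp background with an offset of 50, the series table, other probe rules and filters, a test against 1.5-fold, a replicate block and leaving out each array. Counts of 2-fold changes under them were added after seeing the data.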

Additional observations from a re-analysis of the deposited data

Results flagged for a closer look

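Of 59 members called or with a described role, 4 had 1 transgenic array that stood apart from its group on the log2 scale. The threshold was set to pass about 1 in 20 groups by chance, and 4 of 59 is near that rate. CYP82C2 and CYP82C3, high on replicate 4, did not pass on that scale. CYP76C4 on 35S:MYB106VP16 replicate 4 read 2.49, with the other replicates at 0.103 to 0.152. CYP71B31 on replicate 4 read 0.34 with the others at 0.0998 to 0.116, none of them well above background. CYP71B21 on replicate 4 read 3.95 with the others at 2.58 to 2.66. CYP706A7 on replicate 1 read 7.06 with the others at 9.06 to 9.29.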

How the results depend on the processing

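Among 950 values of 53 followed members under the alternatives, 796 kept direction and side of the threshold, 133 kept direction and lost the call, 13 gained it and 8 changed sign. Of 48 called members, 28 kept their call under every alternative except spike-in scaling and the test against 1.5-fold, and 9 under those as well. Spike-in scaling gave 5 members higher and 49 lower (23 by 2-fold), a member median of -0.608, and 1185 higher and 13549 lower genes, and the signs of CYP705A15 (-0.181), CYP706A4 (-0.32), CYP71B20 (-0.303), CYP71B21 (-0.035), CYP71B4 (-0.195), CYP71B6 (-0.114) and CYP81D4 (-0.181) changed. The authors' series table gave 14 members lower (6 by 2-fold), a member median of 0.19 and 2277 lower genes. The test against 1.5-fold gave 4 members higher and 5 lower (5 by 2-fold), and 795 higher and 710 lower genes. Normexp background gave 3 members lower by 2-fold, and every probe taken alone 8111 features lower. Averaging the probes of CYP76C2 turned it to 0.992. Leaving out 1 array at a time gave 14 to 23 members higher (fewest without wild-type replicate 3), 20 to 28 lower, 4 to 7 higher and 8 to 11 lower by 2-fold, a median of -0.137 to 0.033, 4226 to 5498 higher and 3877 to 5122 lower genes. The replicate block gave 20 members higher and 29 lower. The same-numbered arrays correlated at 0.179, -0.0256 and -0.082 in their deviations from the group means, and differently numbered ones at -0.308 to 0.166. The labels give no pairing, and with so few arrays these correlations cannot settle whether the numbers pair the samples. Slide could not be fitted as a block. The cause of these changes was not tested, apart from the shift of all genes that scaling brings. Signal near background limits the dim members, of which 23 could not be tested.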
